A study of Mus musculus with 17 samples.

Results

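The comparison described here is between the spleens of mice given SLR10, a short stem-loop RNA, and the spleens of mice given vehicle. Both groups belong to a series of 17 mouse spleen libraries sequenced from polyadenylated RNA, in which the other mice received SLR14 (a second stem-loop RNA), poly(I:C) or pppNS, or were left naive. The genes compared were those with at least 1 CPM in at least 2 of the 5 libraries concerned, 3 of SLR10 and 2 of vehicle, which left 13403 of the 38340 genes with a usable name. CPM is the deposited normalised signal per gene, meaning reads divided by a library size that the authors' normalisation set. Its total differed between the groups: named genes summed to 664989, 675053 and 681120 CPM with SLR10 and 478148 and 471992 CPM with vehicle. Summed levels of gene lists given below carry that difference. Levels were compared as log2(CPM + 0.5), and a difference given below is SLR10 minus vehicle on that scale, with its standard error. The standard errors and p-values use a spread pooled over all 17 libraries, so they are not those of the 5 libraries alone. A fold is taken on the same scale, which understates the change of genes near or under 0.5 CPM.

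SLR10 was the agent of the first group. The labels describe SLRs mixed with in vivo-jetPEI (N/P ratio 8), a cationic polymer that carries nucleic acids into cells, and intravenous injection of 25 µg of RNA in 200 µl. The control mice received jetPEI without a named RNA, according to the series' design text. The same injection text stands beside each of the 17 libraries, so the volume and route are not stated separately for the vehicle. All mice carry the strain name CB57BL/6NCrl, with no engineered allele named, and their age and sex are not in the labels used here. The time between injection and collection is not given either, so each value refers to 1 unstated time. The labels do not say outright that each library came from its own mouse, and if some did not, the p-values measure a spread that is partly technical.

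RIG-I, encoded by Ddx58, is a cytosolic helicase that binds short double-stranded RNA with a 5′ triphosphate. It signals through the mitochondrial adapter MAVS to the kinases TBK1 and IKK, which switch on IRF3, IRF7 and NF-kB and with them the interferon genes. Secreted type I interferon then acts through its receptor and JAK kinases on interferon-stimulated response elements (ISREs) in the promoters of many genes. The spleen joins lymphoid white pulp to a red pulp rich in iron-recycling macrophages, and both are exposed to particles in the blood.

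The 3 SLR10 libraries held 28.9 to 38.6 M reads and the vehicle libraries 26.5 and 35 M, so 1 read was worth 0.0199 to 0.0367 CPM. Correlations of log2 levels were 0.993 to 0.996 between SLR10 libraries, 0.991 between the vehicle libraries and 0.864 to 0.872 across the groups. The median SD of log2 levels was 0.087 among SLR10 libraries and 0.086 between the vehicle libraries. The median width of the 95% interval from the pooled spread was 1.09. Lines of the table without a gene name held 36.9% to 39.7% of the reads with SLR10 and 31.1% and 31.9% with vehicle. Reads in named genes came to 18.1 to 23.2 M with SLR10 and to 18.2 and 23.8 M with vehicle. Of 33 markers of spleen cell types, 31 stood at 1 CPM or more in all 5 libraries (not the neutrophil gene Ly6g and the stromal gene Nkx2-5), with the B-cell gene Cd79a at 424, 439 and 475 CPM with SLR10 and 499 and 483 CPM with vehicle. Liver genes stood below 1 CPM in all 5, and Cyp3a11 at 0 reads. Vehicle replicate 2 held fat markers that the other 4 libraries had little of: Cfd stood at 0, 1.46 and 0.108 CPM with SLR10 and 0.0790 and 9.43 CPM with vehicle, and Adipoq at 0.0367, 0.291 and 0 CPM with SLR10 and 0.105 and 2.11 CPM with vehicle. The part of these 2 features in the results was not tested.

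Expression differed between SLR10 and vehicle in a large share of the genes measured. Of 13403 genes, 5396 (40.3%) differed from vehicle at an adjusted p under 0.05 (limma, Benjamini-Hochberg), 2797 of them higher (20.9%) and 2599 lower (19.4%). Counts of listed genes given below are to be read beside these 20.9% and 19.4%. The rises were the steeper. Among called genes, 1630 rose by at least 2-fold (12.2%) and 1483 fell by as much (11.1%), but 235 rose by at least 8-fold (1.75%) against 21 that fell by as much (0.157%), and 50 rose by at least 32-fold (0.373%) against 0. Called-higher genes took 46.1% to 46.5% of the reads in named genes with SLR10 and 20.7% in each vehicle library, and the genes up by at least 8-fold took 12.8% to 12.9% against 1.05% and 1.10%. Called-lower genes took 4.04% to 4.2% against 12.3% and 12.5%. These genes were picked by their direction in the same libraries, so the direction of these shares was fixed by the choice. The shares describe size only. In whole tissue, fewer cells of a type and less RNA per cell cannot be told apart, and this holds for each fall below.

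The split between rises and falls depended on the scaling. When each library was scaled to its reads in named genes, the median of all genes moved by -0.48 and 1366 genes were higher against 4668 lower (22.6% of calls higher, against 51.8% with the authors' scaling). Quantile scaling moved the median by -0.09 and gave 2396 higher and 2848 lower. A difference is therefore relative to the authors' scaling. The median of 13 of the 48 lists changed sign under quantile scaling or when scaled to named reads, and those medians are given beside each such list. Leaving out a library left between 3737 and 4650 calls.

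**Figure D1:**
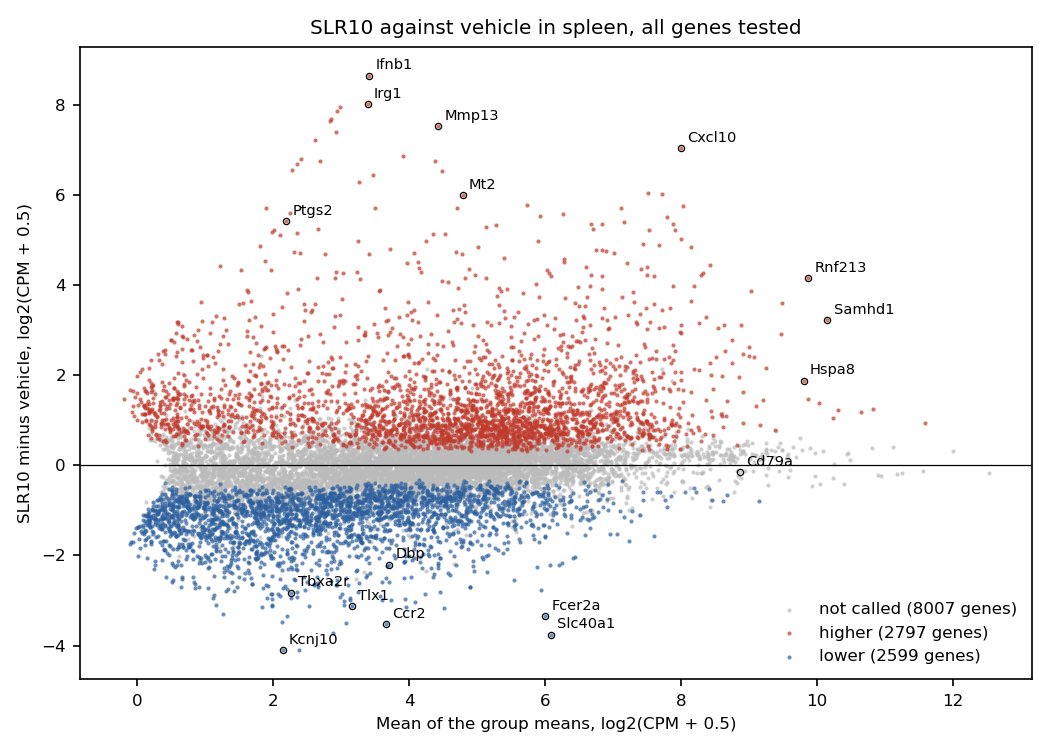
Each point is 1 of the 13403 genes, placed by its mean level in log2(CPM + 0.5) (horizontal axis) and its SLR10 minus vehicle difference on the same scale (vertical axis), and coloured by the call (adjusted p under 0.05). Rises reach 8.65 (Ifnb1) and falls reach -4.11 (Kcnj10), and the B-cell gene Cd79a lies near 0.

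The interferon genes themselves rose from almost nothing. All 13 interferon genes that could be tested were called higher, where 20.9% of all genes were. They passed the level filter through the SLR10 libraries, in which they were high, so this count is a description. Ifnb1, which encodes interferon beta (ENSMUSG00000048806.4, chr4:88522025-88522774, minus strand), was measured at 249.8, 158 and 243 CPM with SLR10 and 0 and 0.0596 CPM with vehicle, a difference of 8.65 ± 0.26, adjusted p = 1.79e-10, and showed the largest rise of any named gene. Interferon gamma, the cytokine of natural killer and T cells, followed: Ifng stood at 137, 162 and 189 CPM with SLR10 and 1.0 and 0.775 CPM with vehicle (6.87 ± 0.56, adjusted p = 5.81e-07). The alpha interferon genes that follow had no read in either vehicle library. Levels of Ifna2 were 146, 92.7 and 140.2 CPM with SLR10, at least 3641-fold over the floor of 3 reads for the 2 vehicle libraries together. The corresponding values were 144, 84.7 and 130.1 CPM for Ifna5 (at least 3439-fold) and 115, 78.4 and 112 CPM for Ifna4 (at least 2944-fold). At the low end, Ifna13 reached 12.7, 7.72 and 11.3 CPM (at least 304-fold). A type III interferon, Ifnl2, was also without a vehicle read and reached 1.54, 1.4 and 2.23 CPM (at least 50.1-fold). In Ifnb1, Ifnl2 and these alpha genes SLR10 replicate 2 held the lowest of the 3 levels, and in none did the groups overlap, as for 41.1% of all genes with SLR10 higher and 40.5% with SLR10 lower. The alpha genes are near-identical copies of each other, as are Ifnl2 and Ifnl3, so the split of reads among them is uncertain. Ifne, Ifnk, Ifnz and Ifnl3 did not reach the level needed for a test.

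The promoters of the interferon genes are shown because the same short element recurs in them. Capitals mark the ISRE core (GAAA, any 2 bases and GAAA again, on either strand), each with its flanks, taken from RefSeq promoters of GRCm38.p6 (250 bases before the transcript start to 50 after) and written 5′ to 3′ in the direction of the gene. Of the 20 largest rises, 15 had a promoter in that table and 10 of these had the core in the 250 bases before the start. Apart from Cxcl10 and Mmp13 these 10 were alpha interferon genes, whose promoters share their sequence. Among the 20 largest falls, 0 of 15 promoters had the core. Over all measured genes 2.94% of promoters had it there, so 0 of 15 does not set the falls apart.
Ifna2 (chr4:88683904-88683973, minus strand): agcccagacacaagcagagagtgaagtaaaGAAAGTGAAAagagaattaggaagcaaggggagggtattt
Ifna5 (chr4:88835330-88835399, plus strand): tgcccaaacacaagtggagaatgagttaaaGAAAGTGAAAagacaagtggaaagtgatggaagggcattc
Ifna9 (chr4:88592471-88592540, minus strand): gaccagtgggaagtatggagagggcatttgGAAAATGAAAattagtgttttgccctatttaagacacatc
Ifna15 (chr4:88558330-88558399, minus strand): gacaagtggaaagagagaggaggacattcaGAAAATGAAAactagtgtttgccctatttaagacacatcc
Cxcl10 (chr5:92349063-92349132, minus strand): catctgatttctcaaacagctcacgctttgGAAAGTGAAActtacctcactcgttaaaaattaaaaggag
Mmp13 (chr9:7272338-7272407, plus strand): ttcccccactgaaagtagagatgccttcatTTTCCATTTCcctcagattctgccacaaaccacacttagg
The first pair and Cxcl10 carry GAAAGTGAAA, whereas the element nearest the start in Ifna9 and Ifna15 is GAAAATGAAA. In Mmp13, which encodes collagenase 3, the core lies on the opposite strand. Ifnb1 and Il6 had no ISRE core in the window and each had 1 match to the NF-kB motif.

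Over all genes the share of promoters with an ISRE core went up with the size of the rise. A promoter was found for 9752 of the 13403 genes, and 3.37% of these held the core in the 300 bases. The share was 2.67% among genes not called, 6.89% among those called higher, 9.78% among those up by at least 2-fold, 28.7% (48 of 167) at 8-fold or more and 54.1% (20 of 37) at 32-fold or more. Among called-lower genes it was 1.78%. The core of the gamma-activated site (GAS, TTCNNNGAA) was in 7.15% of all promoters, 22.8% of those up by at least 8-fold and 32.4% at 32-fold. Matches to the NF-kB motif were in 10.4%, 17.4% and 29.7%. The interferon alpha promoters share their sequence, so the genes of the top class are not independent. An ISRE core overlapped a GAS core in 8 of the 329 promoters that held an ISRE core, and an NF-kB match in 1. A match describes the sequence and does not show binding.

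**Figure D2:**
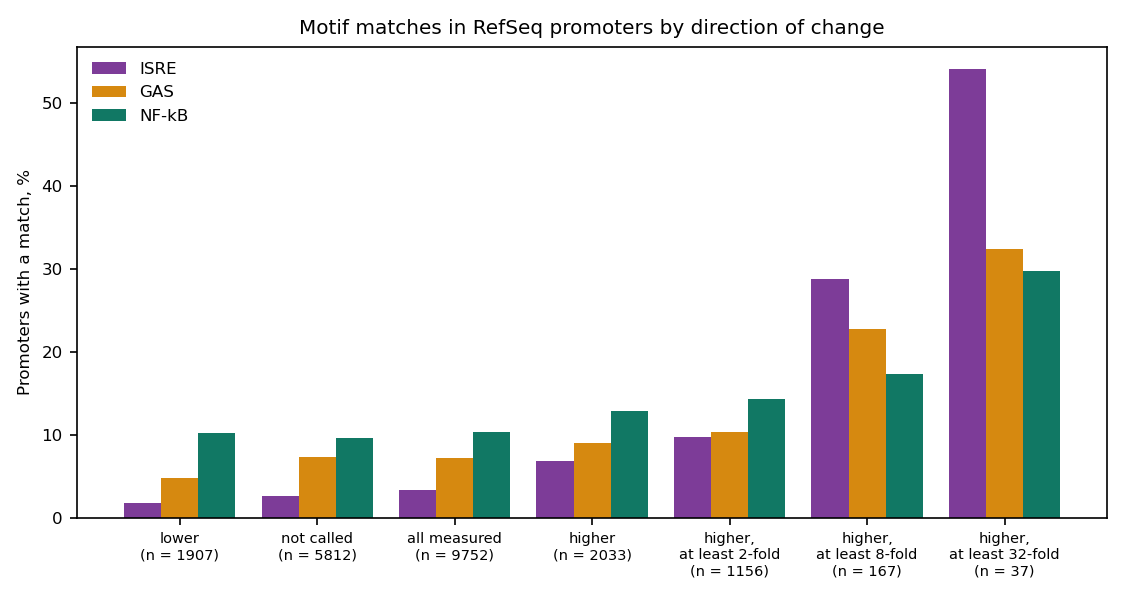
Bars give the percent of promoters with at least 1 match (vertical axis, from 0) to the ISRE core, the GAS core or the NF-kB motif for classes of genes (horizontal axis, n is the number of promoters), in which the fold classes are nested within the genes called higher. The ISRE share runs from 1.78% in called-lower genes to 54.1% in genes up by at least 32-fold.

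Most sensors of foreign nucleic acid rose, and the adapter gene Mavs did not pass. Of 28 listed genes, 20 were higher and 2 lower, with a median difference of 1.53 (0.01 over all genes). Ddx58, the RIG-I gene itself, rose from 87.2 and 93.7 CPM with vehicle to 696, 725 and 693 CPM with SLR10 (2.96 ± 0.25, adjusted p = 6.76e-07). Its relative Ifih1, which encodes the long-RNA sensor MDA5, rose more (684, 671 and 632 CPM with SLR10 and 23.6 and 26.2 CPM with vehicle, 4.71 ± 0.33, adjusted p = 1.48e-07). Dhx58, another RIG-I-like receptor, rose by 3.91 ± 0.30. The Z-form nucleic acid sensor Zbp1 showed the largest rise of the list (1409, 1483 and 1488 CPM with SLR10 and 45.5 and 43.3 CPM with vehicle, 5.02 ± 0.32, adjusted p = 8.04e-08). The kinase that halts translation on double-stranded RNA, Eif2ak2, rose by 3.74 ± 0.30, and the gene of the DNA sensor cGAS, named Mb21d1 in the table, by 3.19 ± 0.24. By contrast Mavs was at 15.7, 15.6 and 16.8 CPM with SLR10 and 24.8 and 28.2 CPM with vehicle and did not pass (-0.71 ± 0.39, adjusted p = 0.172), and the adapters Ticam1 (0.24 ± 0.18) and Traf3 (-0.21 ± 0.26) did not pass either. The list had 1 fall in place of 2 without vehicle replicate 1 and again without vehicle replicate 2. In a fit of the 5 libraries alone 23 of the 28 genes were called higher and 5 lower, so Mavs, Ticam1 and Traf3 were called there. That fit called 9676 of all 13403 genes. The lack of a call for these adapters therefore rests on the spread pooled over the 17 libraries.

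Genes that restrain the pathway rose with it. Of 22, 17 were higher and 0 lower (median 1.91). Usp18, which removes ISG15 and blocks the interferon receptor, was measured at 656, 636 and 677 CPM with SLR10 and 15.1 and 15.8 CPM with vehicle (5.36 ± 0.33, adjusted p = 5.94e-08). Socs1, an inhibitor of JAK kinases, stood at 190.0, 229.6 and 239 CPM with SLR10 and 5.40 and 4.81 CPM with vehicle (5.29 ± 0.45, adjusted p = 8.70e-07). The RNA editor Adar rose by 2.33 ± 0.19. Among transcription factors, 6 of 9 interferon regulatory factors rose and 1 fell. Irf7, which amplifies alpha interferon expression, showed the largest rise (1530, 1600 and 1700 CPM with SLR10 and 76.9 and 69.8 CPM with vehicle, 4.45 ± 0.25, adjusted p = 2.57e-08), while Irf3, which is activated by phosphorylation, did not pass (69.0, 71.2 and 76.8 CPM with SLR10 and 69.3 and 61.3 CPM with vehicle, 0.15 ± 0.17, adjusted p = 0.549). Stat2, which carries the interferon signal to the nucleus, rose by 2.95 ± 0.27. Of the receptor subunits, Ifngr1, the ligand-binding chain of the interferon gamma receptor, fell from 99.5 and 106 CPM to 45.6, 51.6 and 49.8 CPM (-1.06 ± 0.16, adjusted p = 1.15e-04), and Ifnar1 did not pass (0.14 ± 0.15). Over the 16 STAT and receptor genes, 5 were higher and 2 lower (1 lower without vehicle replicate 1). That was 31.25% higher and 12.5% lower, beside 20.9% and 19.4% of all genes. The median of this list was 0.29 and was -0.02 under quantile scaling and -0.21 when scaled to named reads.

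Interferon-stimulated genes rose almost without exception. Of 56, 55 were higher and 0 lower, with a median of 3.81. Ifit2, which binds viral RNA, was measured at 1746, 1707 and 1648 CPM with SLR10 and 24.4 and 27.1 CPM with vehicle (6.02 ± 0.36, adjusted p = 5.15e-08), a rise of 64.9-fold (95% interval 37.8 to 112). Oas3, an oligoadenylate synthetase of the RNase L pathway, stood at 705, 746 and 747 CPM with SLR10 and 17.4 and 17.1 CPM with vehicle (5.37 ± 0.31, adjusted p = 3.45e-08). Bst2, the tether of budding virions, rose from 39.5 and 38.1 CPM to 375, 328 and 411 CPM (3.24 ± 0.50, adjusted p = 1.37e-04). The GTPase gene Mx2 rose by 4.97 ± 0.29 and Irgm1 by 3.99 ± 0.21. In none of these genes did the groups overlap, as for 41.1% of all genes with SLR10 higher and 40.5% with SLR10 lower. The member that did not pass was Ifitm2, at 63.1, 76.9 and 67.1 CPM with SLR10 and 51.9 and 54.6 CPM with vehicle (0.37 ± 0.23, adjusted p = 0.231). Some of the list's genes have close copies (Ifit3 and Ifit3b, Tgtp1 and Tgtp2, the Oas1 group), and reads may be split between copies.

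Class I antigen presentation genes rose, and few class II genes passed the test. Of 23 genes of the class I route, 22 rose and 0 fell (median 1.73). Nlrc5, the class I transactivator, rose from 99.5 and 106 to 875, 940.4 and 957 CPM (3.16 ± 0.29, adjusted p = 1.54e-06). The peptide transporter genes Tap1 and Tap2 rose by 2.40 ± 0.25 and 1.87 ± 0.24. H2-K1, a classical class I heavy chain and one of the 10 genes with the most reads, stood at 2393, 2400 and 2503 CPM with SLR10 and 1080 and 1050 CPM with vehicle (1.19 ± 0.28, adjusted p = 0.00388) and was not called under quantile scaling. The heavy chains resemble each other, so reads may be shared among them. In the class II list, 2 of 17 rose (1 without vehicle replicate 2) and 2 fell (1 without vehicle replicate 1). That was 11.8% each way, beside 20.9% higher and 19.4% lower of all genes. The invariant chain gene Cd74 was at 2470, 2707 and 2564 CPM with SLR10 and 2277 and 1641 CPM with vehicle (0.42 ± 0.29, adjusted p = 0.283), and the class II transactivator Ciita at -0.28 ± 0.69. Rfxank, a subunit of the class II promoter complex, fell (-1.01 ± 0.22). Under quantile scaling 10 class II genes were called lower and 0 higher.

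Inflammatory cytokines rose beside the interferons. Of 24 interleukins and related cytokines, 18 were higher and 2 lower. Il6, an acute-phase cytokine, was measured at 102, 85.4 and 112 CPM with SLR10 and 0.132 and 0.0397 CPM with vehicle (7.41 ± 0.45, adjusted p = 5.09e-08). Il27, a product of activated myeloid cells, stood at 97.4, 97.9 and 113 CPM with SLR10 and 0.763 and 0.596 CPM with vehicle (6.45 ± 0.43, adjusted p = 1.06e-07). Il1rn, the secreted antagonist of interleukin 1, rose by 5.72 ± 0.34, Tnf by 3.94 ± 0.24 and Il1a by 2.46 ± 0.21. Il22 had 0 reads with vehicle and 3.04, 3.99 and 5.37 CPM with SLR10 (at least 122-fold over 3 reads). The list's falls were Il7 and Il16. Il7, made by stromal cells and needed by lymphocytes, fell from 2.32 and 3.00 CPM to 0.807, 0.524 and 0.504 CPM (-1.51 ± 0.24, adjusted p = 1.56e-04). Among 32 cytokine receptors 17 rose, among them the interleukin 12 receptor chains Il12rb1 (4.30 ± 0.32, adjusted p = 2.64e-07) and Il12rb2 (2.84 ± 0.38, adjusted p = 3.64e-05), and 2 fell, among them Csf1r, the macrophage growth factor receptor (72.1, 83.9 and 80.0 CPM with SLR10 and 204 and 251 CPM with vehicle, -1.52 ± 0.19, adjusted p = 2.63e-05).

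Most chemokine ligands rose, and several of their receptors fell. Of 28 chemokines, 18 were higher and 2 lower (1 lower without vehicle replicate 2). Cxcl10, a ligand of CXCR3 (ENSMUSG00000034855.13, chr5:92346638-92348889, minus strand), became one of the 10 genes with the most reads: it stood at 2866, 3060 and 2915 CPM with SLR10 and 19.6 and 24.3 CPM with vehicle, a rise of 132-fold (95% interval 76.1 to 228). Its relatives Cxcl9 and Cxcl11 rose by 6.05 ± 0.46 and 6.75 ± 0.45. Ccl2, the monocyte attractant, went from 1.55 and 2.11 CPM to 211, 204 and 226 CPM (6.53 ± 0.38, adjusted p = 4.21e-08), and Ccl4 from 1.42 and 1.57 CPM to 222, 198 and 226 CPM (6.76 ± 0.58, adjusted p = 8.64e-07). The homeostatic chemokines of the white pulp did not pass: Cxcl13, which draws B cells, was at 108, 140.1 and 106 CPM with SLR10 and 91.3 and 90.2 CPM with vehicle (0.37 ± 0.24), and the differences of Ccl19 and Ccl21a were 0.27 ± 0.40 and -0.13 ± 0.38.

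In the receptor list, 8 of 31 rose and 12 fell, a smaller share of rises than of falls (25.8% against 38.7%, where all genes gave 20.9% and 19.4%). Ccr2, the receptor for CCL2, fell from 39.0 and 45.6 CPM to 3.81, 3.23 and 2.70 CPM (-3.52 ± 0.22, adjusted p = 7.48e-08). Cx3cr1, found on patrolling monocytes, fell as far (0.953, 0.845 and 0.648 CPM with SLR10 and 12.5 and 15.7 CPM with vehicle, -3.47 ± 0.21, adjusted p = 5.15e-08), and its ligand gene Cx3cl1 rose by 4.28 ± 0.32. The egress receptor gene S1pr5 fell (-2.59 ± 0.18). Xcr1, carried by cross-presenting dendritic cells, fell too (-2.66 ± 0.19), and its ligand gene Xcl1 rose by 2.41 ± 0.31. Among the rises, Ccrl2, a non-signalling receptor of activated cells, went from 2.79 and 4.05 CPM to 132, 144 and 134 CPM (5.15 ± 0.25, adjusted p = 9.51e-09), and Ccr7, which guides cells to T-cell zones, was higher by 1.56 ± 0.22.

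Activation markers of the immune synapse followed. In the TNF superfamily, 13 of 29 rose and 4 fell, and among checkpoints 12 of 21 rose and 4 fell. In both lists the falls came to 2 without vehicle replicate 1 and to 2 without vehicle replicate 2. In the TNF list they also came to 2 without SLR10 replicate 3. Cd274, which encodes PD-L1, stood at 569, 618 and 603 CPM with SLR10 and 38.3 and 43.3 CPM with vehicle (3.85 ± 0.44, adjusted p = 1.10e-05). Cd69, an early marker of lymphocyte activation that retains cells in lymphoid tissue, rose from 20.3 and 19.8 CPM to 583, 592 and 522 CPM (4.78 ± 0.52, adjusted p = 6.13e-06). The costimulatory gene Cd86 rose by 2.13 ± 0.23, Cd40 by 2.93 ± 0.28 and the death receptor gene Fas by 2.68 ± 0.26. Cd244, a receptor of natural killer cells, fell (-2.41 ± 0.20). Tnfrsf13b, the BAFF and APRIL receptor TACI, fell (-1.20 ± 0.14).

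**Figure D3:**
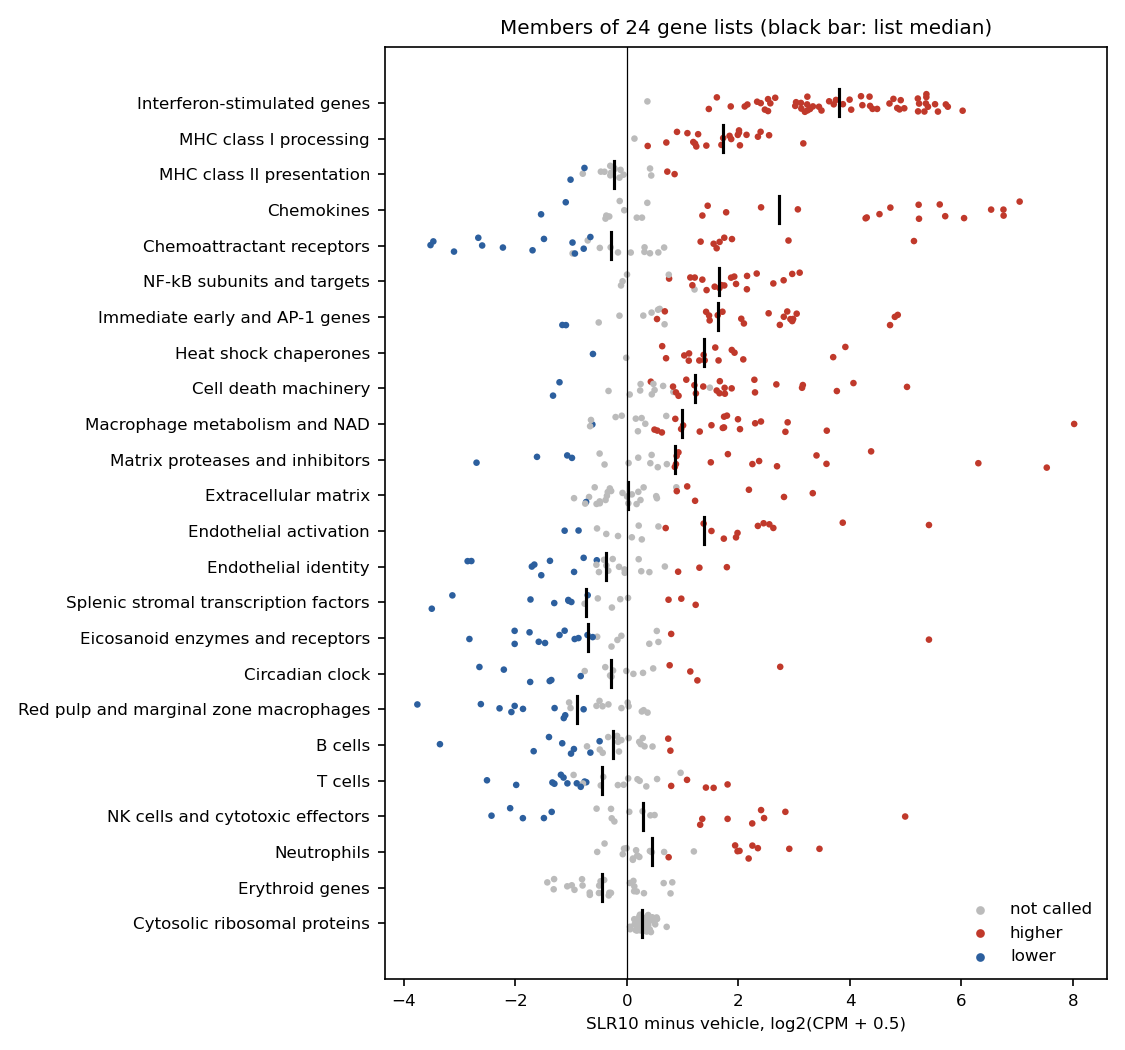
Each point is 1 tested gene of 24 of the 48 lists, placed by its SLR10 minus vehicle difference in log2(CPM + 0.5) and coloured by the call, and black bars are list medians. The median is 3.81 for interferon-stimulated genes, -0.89 for red pulp and marginal zone macrophages and 0.27 for ribosomal proteins, of which none was called.

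Transcription factors of the immediate response and of NF-kB rose. Of 25 NF-kB subunits and targets, 20 were higher and 0 lower (median 1.66), and of 29 immediate early genes 20 were higher and 2 lower (1 lower without any 1 of the 5 libraries). Batf2, an interferon-responsive AP-1 factor, stood at 60.5, 72.7 and 75.1 CPM with SLR10 and 2.08 and 1.91 CPM with vehicle (4.80 ± 0.32, adjusted p = 1.06e-07), and Nr4a3 at 165, 186 and 171 CPM with SLR10 and 5.79 and 5.24 CPM with vehicle (4.86 ± 0.40, adjusted p = 6.36e-07). Myc rose by 3.04 ± 0.25. The inhibitor genes Nfkbiz and Nfkbie rose by 2.33 ± 0.24 and 1.75 ± 0.19, whereas the kinase genes Chuk and Ikbkb did not pass (0.00 ± 0.15 and -0.08 ± 0.20). Of 34 cell death genes 22 were higher and 2 lower. Those that rose included genes of lytic death: Mlkl, the pore-forming effector of necroptosis, was measured at 95.2, 95.8 and 97.7 CPM with SLR10 and 5.03 and 5.56 CPM with vehicle (4.06 ± 0.37, adjusted p = 1.32e-06), and Casp4, the cytosolic endotoxin sensor, at 163, 166 and 150.3 CPM with SLR10 and 16.1 and 19.4 CPM with vehicle (3.14 ± 0.32, adjusted p = 4.12e-06). The initiator caspase gene Casp9 fell (-1.32 ± 0.31, adjusted p = 0.00307).

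Chaperones and metallothioneins rose as well. Of 17 heat shock genes 15 were higher and 1 lower (median 1.38). Hspa8, the constitutive HSP70, stood at 1681, 1477 and 2030 CPM with SLR10 and 453 and 478 CPM with vehicle (1.88 ± 0.23, adjusted p = 1.54e-05). The inducible gene Hspa1a varied widely among the SLR10 libraries, at 17.3, 11.6 and 36.0 CPM with SLR10 and 0.842 and 0.794 CPM with vehicle (3.92 ± 0.38, adjusted p = 2.26e-06), and Hspa1b, its near-identical neighbour with which reads may be shared, likewise (26.5, 15.6 and 56.2 CPM with SLR10). The one fall, of Cryab (-0.61 ± 0.22, adjusted p = 0.0413), was not called without any 1 of the 5 libraries (adjusted p 0.0647 to 0.203). Mt2, a metal-binding protein gene, was measured at 200.1, 254 and 209.6 CPM with SLR10 and 3.05 and 2.84 CPM with vehicle (6.00 ± 0.52, adjusted p = 9.50e-07) and Mt1 at 122, 156 and 132 CPM with SLR10 and 7.45 and 6.06 CPM with vehicle (4.24 ± 0.62, adjusted p = 9.23e-05). Cdkn1a, the cell-cycle inhibitor p21, rose from 4.58 and 5.20 CPM to 127, 144 and 148 CPM (4.70 ± 0.35, adjusted p = 2.62e-07). Over the list of 16 metallothionein and glucocorticoid-responsive genes, 7 were higher and 1 lower. Of the glucocorticoid targets, Fkbp5 (0.96 ± 0.29, adjusted p = 0.0167) and Dusp1 (1.48 ± 0.37, adjusted p = 0.00525) rose, Sgk1 fell (-0.52 ± 0.17, adjusted p = 0.0236), and Tsc22d3 (0.33 ± 0.39), Klf9 (-0.06 ± 0.67) and Per1 (0.47 ± 0.34) did not pass. Without vehicle replicate 1 none of Fkbp5, Dusp1 and Sgk1 was called (adjusted p = 0.0561 for Fkbp5 and 0.0528 for Dusp1), and Fkbp5 and Sgk1 were not called without vehicle replicate 2 (adjusted p = 0.115 and 0.153), nor Sgk1 without SLR10 replicate 1 or 3. Fkbp5 was also not called under quantile scaling or when scaled to named reads, and Sgk1 not by edgeR or with the naive mice as control. In the stress list Ppp1r15a, which reverses the translation block, rose by 3.75 ± 0.55, and Ddit3, the CHOP gene, did not pass (13.3, 11.7 and 14.1 CPM with SLR10 and 11.4 and 12.3 CPM with vehicle, 0.13 ± 0.51). That list gave 10 rises and 2 falls of 23 (median 0.50, and -0.00 when scaled to named reads). Its shares were 43.5% higher and 8.70% lower, beside 20.9% and 19.4% of all genes.

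Enzyme genes of itaconate, NAD salvage and the first step of glycolysis rose. Irg1 (also named Acod1), which makes itaconate from a citric acid cycle intermediate, was measured at 161, 177 and 167 CPM with SLR10 and 0.105 and 0.199 CPM with vehicle (8.02 ± 0.50, adjusted p = 6.40e-08), the second-largest rise of a named gene. Nampt, the rate-limiting enzyme of NAD salvage, rose by 3.58 ± 0.24, the hexokinase gene Hk2 by 2.88 ± 0.26 and the tryptophan-degrading enzyme gene Ido1 by 2.84 ± 0.25. Over the list, 20 of 30 rose and 1 fell, while the abundant glycolysis genes Gapdh (0.26 ± 0.15) and Eno1 (-0.20 ± 0.13) did not pass. In the lipid list 9 of 32 rose and 6 fell (3 without vehicle replicate 1, and 3 without vehicle replicate 2), shares of 28.1% and 18.8% beside 20.9% and 19.4% of all genes. Scaled to named reads it gave 4 rises and 12 falls. Ch25h, which makes the antiviral 25-hydroxycholesterol, rose from 1.92 and 1.85 CPM to 23.7, 22.8 and 23.2 CPM (3.32 ± 0.43, adjusted p = 3.19e-05). Scd2, a desaturase, and Dhcr7, of late cholesterol synthesis, fell (-2.03 ± 0.19 and -1.15 ± 0.18), and the transcription factor gene Srebf2 did not pass (-0.21 ± 0.34).

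The iron exporter gene was among the deepest falls. Slc40a1, which encodes ferroportin, the iron exporter of red pulp macrophages, fell from 213 and 290.1 CPM to 19.6, 19.0 and 15.5 CPM (-3.76 ± 0.26, adjusted p = 1.47e-07), a fall of 13.5-fold (95% interval 9.21 to 19.8). Cd163, the haemoglobin scavenger receptor, stood at 1.94, 2.10 and 2.02 CPM with SLR10 and 13.2 and 17 CPM with vehicle (-2.62 ± 0.40, adjusted p = 1.36e-04). Lcn2, which sequesters bacterial iron carriers, rose by 2.35 ± 0.46. The ferritin chains did not pass (Fth1 0.34 ± 0.40, Ftl1 -0.58 ± 0.36). Of 21 genes in this list, 5 were higher and 5 lower (23.8% each way), near the 20.9% and 19.4% of all genes. The median was 0.10, with 4 higher and 8 lower under quantile scaling (median -0.30) and -0.40 when scaled to named reads.

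Most eicosanoid genes that changed were lower, and the inducible cyclooxygenase was not among them. Ptgs2, which encodes it, was measured at 28.9, 27.4 and 31.6 CPM with SLR10 and 0.158 and 0.238 CPM with vehicle (5.42 ± 0.38, adjusted p = 1.69e-07). The constitutive form, Ptgs1, went the other way, from 27.2 and 33.4 CPM to 7.19, 6.96 and 7.13 CPM (-2.01 ± 0.23, adjusted p = 9.62e-06). Tbxa2r, the thromboxane receptor gene, fell (-2.82 ± 0.21), and so did Hpgd, which degrades prostaglandins (-2.01 ± 0.20). In all, 12 of 21 fell and 2 rose (median -0.71). Falls came to 8 to 11 when 1 library was left out.

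Clock genes changed in both directions. Of 19 clock genes 4 were higher and 6 lower (21.1% and 31.6%, beside 20.9% and 19.4% of all genes). Nfil3, a repressor of D-box promoters, rose from 2.29 and 1.83 CPM to 14.6, 17.7 and 17.8 CPM (2.75 ± 0.30, adjusted p = 6.60e-06). The D-box activator Dbp fell (5.98, 5.77 and 5.04 CPM with SLR10 and 27.1 and 28.1 CPM with vehicle, -2.21 ± 0.23, adjusted p = 5.52e-06) and so did its relative Hlf (0.183, 0.117 and 0.396 CPM with SLR10 and 3.87 and 4.17 CPM with vehicle, -2.64 ± 0.24, adjusted p = 1.27e-06). In the oscillator, Per3 fell (-1.73 ± 0.27) and Npas2, a relative of Clock, rose from 0.237 and 0.218 CPM to 0.990, 1.28 and 1.04 CPM (1.14 ± 0.16, adjusted p = 6.28e-05), though it was not called with the naive mice as control. Arntl, Clock, Per2 and Cry1 did not pass (-0.28 ± 0.22, -0.25 ± 0.28, 0.12 ± 0.36 and 0.29 ± 0.23).

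Transcription factors of the splenic stroma were among the deepest falls. Tcf21, a factor of the mesenchymal layer from which the spleen grows (ENSMUSG00000045680.8, chr10:22817281-22820174, minus strand), fell from 23.6 and 32.8 CPM to 1.54, 2.30 and 2.27 CPM (-3.50 ± 0.33, adjusted p = 1.91e-06). Tlx1, required for the spleen to form, stood at 2.46, 2.50 and 2.56 CPM with SLR10 and 24.6 and 27.1 CPM with vehicle (-3.13 ± 0.21, adjusted p = 1.03e-07). Tbx2 and Gata6 fell (-1.30 ± 0.24 and -1.04 ± 0.18), while Foxf1 rose by 1.23 ± 0.23. Of 16 such genes, 8 fell and 3 rose (median -0.73), with 5 falls without vehicle replicate 1. Most fibroblast matrix genes did not pass: Col1a1 was at -0.28 ± 0.47, Col3a1 at 0.24 ± 0.40 and Dcn at -0.36 ± 0.43, and the list gave 6 rises and 1 fall of 30 (0 falls without SLR10 replicate 1 or 3 or either vehicle library). Its share of rises was no larger than the 20.9% of all genes, and its share of falls was below the 19.4%. The median was 0.01, and -0.28 under quantile scaling and -0.49 when scaled to named reads. Quantile scaling gave 3 rises and 3 falls, and scaling to named reads gave 3 rises and 4 falls. With the authors' scaling the rises included the provisional matrix genes Vcan (45.5, 50.2 and 51.7 CPM with SLR10 and 3.42 and 5.66 CPM with vehicle, 3.33 ± 0.29, adjusted p = 8.50e-07) and Tnc (2.82 ± 0.46).

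Matrix proteases changed strongly in both directions. Mmp13, the collagenase whose promoter is shown above, rose from 1.32 and 0.874 CPM to 307, 269 and 299.6 CPM (7.53 ± 0.54, adjusted p = 1.90e-07). Adamts4, an aggrecanase, stood at 82.8, 88.6 and 81.5 CPM with SLR10 and 0.553 and 0.596 CPM with vehicle (6.30 ± 0.44, adjusted p = 1.63e-07), while its relative Adamts5 fell (-2.70 ± 0.21). The list of 26 gave 14 rises and 4 falls. Coagulation genes gave 9 rises and 3 falls of 20. F3, the tissue factor that starts clotting, rose by 1.98 ± 0.35, and Procr, the protein C receptor, by 3.87 ± 0.29. F13a1, the clot-stabilising factor made by macrophages and platelets, fell (-2.65 ± 0.31). In the complement list 10 of 24 rose, among them Cfb (1.72 ± 0.23) and C3 (1.32 ± 0.24, not called under quantile scaling), and 4 fell, led by Cd55, a brake on complement at the cell surface (20.2, 19.2 and 16.9 CPM with SLR10 and 104 and 119.5 CPM with vehicle, -2.54 ± 0.16, adjusted p = 8.70e-08). The complement counts depended on the scaling, with 6 rises and 6 falls under quantile scaling and 6 and 7 when scaled to named reads, and the median of 0.08 was then -0.01 and -0.40.

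Endothelial activation genes mostly rose, and several identity genes fell. Of 21 activation genes 12 rose and 2 fell. Icam1, an adhesion receptor for leukocytes, stood at 428, 448 and 446 CPM with SLR10 and 68.3 and 73.7 CPM with vehicle (2.63 ± 0.21, adjusted p = 4.27e-07), and Sele, or E-selectin, at 4.58, 4.02 and 4.18 CPM with SLR10 and 0.342 and 0.397 CPM with vehicle (2.45 ± 0.26, adjusted p = 5.91e-06). The 2 falls, of Esm1 and Thbd, were not called without vehicle replicate 1, nor without vehicle replicate 2. Of 25 identity genes 3 rose and 9 fell, the largest falls being of the SOX factors Sox18 (1.10, 0.641 and 1.19 CPM with SLR10 and 10.6 and 9.51 CPM with vehicle, -2.86 ± 0.28, adjusted p = 2.63e-06) and Sox17 (-2.79 ± 0.23, adjusted p = 6.54e-07). Their relative Sox7 rose by 1.79 ± 0.23. Of the markers of the cell type, Pecam1 and Kdr did not pass (-0.04 ± 0.17 and -0.25 ± 0.35), and Cdh5 was called higher. Cdh5 stood at 73.5, 88.2 and 79.8 CPM with SLR10 and 33.6 and 31.0 CPM with vehicle (1.30, adjusted p = 0.00957, limma). It was not called without vehicle replicate 2. Among 34 growth factors 10 rose (6 without vehicle replicate 1, 6 without vehicle replicate 2, and 3 when scaled to named reads) and 7 fell (median -0.07, 0.21 under quantile scaling and -0.53 when scaled to named reads). These shares were 29.4% higher and 20.6% lower, beside 20.9% and 19.4% of all genes. The Notch ligand gene Jag1 fell from 18.1 and 19.8 CPM to 4.99, 4.89 and 4.39 CPM (-1.89 ± 0.21, adjusted p = 7.51e-06), Igf1 fell (-1.59 ± 0.25), and Inhbb, an activin subunit, rose by 2.33 ± 0.25.

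Genes of resident macrophages fell, with no rise among them. Of 22 genes, 10 were lower and 0 higher (median -0.89), with 7 lower without vehicle replicate 2. Summed over the list, levels were 1437, 1527 and 1433 CPM with SLR10 and 1947 and 2311 CPM with vehicle. The scavenger gene Cd5l fell (-2.07 ± 0.32), and so did the mannose receptor gene Mrc1 (-1.86 ± 0.22). Spic, the factor that specifies red pulp macrophages, did not pass (89.6, 91.5 and 93.7 CPM with SLR10 and 66.3 and 75.4 CPM with vehicle, 0.37 ± 0.25), nor did Timd4 (0.03 ± 0.25) or C1qb (-0.10 ± 0.39).

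Monocyte and dendritic cell genes went in both directions. In the monocyte list 8 of 20 rose and 8 fell (median 0.13, and -0.36 when scaled to named reads). The falls were led by Ccr2, Cx3cr1 and F13a1, given above, and the rises included Vcan, given with the matrix genes. Summed over the monocyte list, levels were 3286, 3180 and 3315 CPM with SLR10 and 1243 and 1267 CPM with vehicle. Dendritic cell genes gave 5 rises and 8 falls of 20 (25.0% and 40.0%). Their summed level was 2009, 2137 and 2123 CPM with SLR10 and 1081 and 1038 CPM with vehicle. A sum is weighted towards abundant members, and the median difference of the list was -0.20. The median was -0.48 under quantile scaling and -0.70 when scaled to named reads. Xcr1 stood at 2.31, 2.16 and 1.58 CPM with SLR10 and 14.9 and 15.7 CPM with vehicle, and Itgax, which encodes CD11c, at 19.8, 20.8 and 16.6 CPM with SLR10 and 65.9 and 66.7 CPM with vehicle (-1.78 ± 0.18, adjusted p = 4.46e-06). The maturation gene Fscn1 rose by 2.77 ± 0.29, and Zbtb46, the factor of the lineage, did not pass (-0.42 ± 0.16, adjusted p = 0.0503). Snx22 fell (-2.93 ± 1.07, adjusted p = 0.042), a call lost without any 1 of the 5 libraries (adjusted p 0.0631 to 0.159), with a pseudocount of 0.1 and without the filter. For plasmacytoid cells 4 of 13 genes fell (1 without vehicle replicate 2) and 3 rose, 1 of them Bst2, which interferon induces in many cells. These shares were 30.8% lower and 23.1% higher, beside 19.4% and 20.9% of all genes, and the median of 0.01 was -0.65 under quantile scaling and -0.49 when scaled to named reads. Siglech, their surface marker, was at 9.28, 7.63 and 8.61 CPM with SLR10 and 13.7 and 15.2 CPM with vehicle (-0.73 ± 0.21, adjusted p = 0.0116), and was not called without vehicle replicate 2 (adjusted p = 0.0963).

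Neutrophil genes rose in part. Of 23 tested genes 9 rose and 0 fell, and the summed level was 805, 637 and 633 CPM with SLR10 and 263 and 262 CPM with vehicle. The share higher was 39.1%, beside 20.9% of all genes. The median was 0.45, and -0.01 when scaled to named reads. Il1r2, a decoy interleukin 1 receptor, stood at 17.4, 20.1 and 19.8 CPM with SLR10 and 1.53 and 1.07 CPM with vehicle (3.45 ± 0.43, adjusted p = 2.22e-05), Retnlg at 40.2, 36.2 and 42.4 CPM with SLR10 and 5.05 and 4.59 CPM with vehicle (2.91 ± 0.54, adjusted p = 5.81e-04) and Mmp8 at 19.6, 23.5 and 16.3 CPM with SLR10 and 3.82 and 3.63 CPM with vehicle (2.25 ± 0.36, adjusted p = 2.08e-04). The granule protein genes Elane (0.11 ± 0.74), Mpo (-0.05 ± 0.75) and Ltf (-0.01 ± 0.69) did not pass, and Csf3r, the receptor for the growth factor of these cells, was at 36.3, 37.5 and 40.3 CPM with SLR10 and 31.4 and 35.3 CPM with vehicle (0.19 ± 0.36). With the naive mice as the control, Retnlg was not called. Basophil and mast cell genes were mostly too low to test. Of the 8 that could be, Hdc, which makes histamine and is also expressed by neutrophils, rose from 2.90 and 2.72 CPM to 70.0, 78.7 and 73.1 CPM (4.49 ± 0.35, adjusted p = 3.45e-07), and the eosinophil receptor gene Ccr3 fell from 21.9 and 25.3 CPM to 2.35, 2.53 and 2.05 CPM (-3.10 ± 0.29, adjusted p = 1.80e-06).

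The B-cell identity genes Ms4a1 and Pax5 did not pass, and several surface receptors of these cells fell. Of 24 genes 8 were lower and 2 higher (0 higher without vehicle replicate 2). That was 33.3% lower and 8.33% higher, beside 19.4% and 20.9% of all genes, with a list median of -0.25. The differences of Ms4a1 and Pax5 were 0.22 ± 0.30 and 0.28 ± 0.37. Fcer2a, the low-affinity IgE receptor CD23 of follicular B cells, fell from 212 and 196 CPM to 20.1, 19.98 and 18.6 CPM (-3.35 ± 0.35, adjusted p = 4.33e-06), a fall of 10.2-fold (95% interval 6.10 to 17.1). Cr2, the complement receptor, fell (-1.67 ± 0.27), as did Cd1d1, which presents lipids (-1.0 ± 0.16). Summed over the list, levels were 3303, 3393 and 3540 CPM with SLR10 and 4150 and 4055 CPM with vehicle.

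T-cell genes gave 11 falls (7 without vehicle replicate 1) and 5 rises (3 without vehicle replicate 2) of 28. The shares were 39.3% lower and 17.9% higher, beside 19.4% and 20.9% of all genes, with a list median of -0.45. Cd5, which dampens receptor signalling, stood at 4.95, 5.56 and 3.96 CPM with SLR10 and 31.9 and 27.4 CPM with vehicle (-2.51 ± 0.19, adjusted p = 2.97e-07), and the receptor chain gene Cd3g at 10.3, 10.3 and 8.97 CPM with SLR10 and 44.5 and 36.7 CPM with vehicle (-1.98 ± 0.30, adjusted p = 1.09e-04). Cd247, the zeta chain, did not pass (0.23 ± 0.25), nor did Cd8a (-0.06 ± 0.19). The factor Tbx21, or T-bet, rose by 1.81 ± 0.25. The summed level of the list was 1197, 1246 and 1206 CPM with SLR10 and 1188 and 1030 CPM with vehicle.

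Genes of natural killer and cytotoxic cells changed in both directions. Of 21 genes 8 rose and 5 fell (median 0.28), and 7 rose and 8 fell when scaled to named reads (median -0.19). With the authors' scaling the shares were 38.1% higher and 23.8% lower, beside 20.9% and 19.4% of all genes. Gzmb, which encodes granzyme B, rose from 2.47 and 3.32 CPM to 97.3, 109.9 and 113 CPM (4.99 ± 0.35, adjusted p = 1.57e-07), a rise of 31.8-fold (95% interval 19.0 to 53.3). Eomes, a factor of natural killer cells, rose by 2.46 ± 0.25. Klrd1, the CD94 chain of the NKG2 receptors, fell (4.29, 3.64 and 4.0 CPM with SLR10 and 23.4 and 23.6 CPM with vehicle, -2.43 ± 0.25, adjusted p = 3.86e-06), and Cd160 fell (-2.09 ± 0.19). Ncr1, the defining receptor of natural killer cells, did not pass (7.59, 7.78 and 6.55 CPM with SLR10 and 4.92 and 7.07 CPM with vehicle, 0.28 ± 0.29), nor did Prf1, the perforin gene (0.42 ± 0.34).

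Erythroid genes gave 0 calls of 26 by limma and 0 by edgeR on the recovered reads, with a median of -0.44. At an unadjusted p under 0.05 the count was 0 by either tool. Their spread among libraries was wide: Hbb-bs stood at 2102, 1137 and 1430 CPM with SLR10 and 1659 and 1142 CPM with vehicle. In a fit of the 5 libraries alone 9 erythroid genes were called lower and 3 higher.

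The deepest fall was of a channel gene. Kcnj10, an inward-rectifier potassium channel (ENSMUSG00000044708.5, chr1:172341210-172374085, plus strand), went from 16.6 and 19.0 CPM to 0.697, 0.495 and 0.504 CPM (-4.11 ± 0.34, adjusted p = 6.45e-07), a fall of 17.2-fold (95% interval 10.4 to 28.6). Arvcf, a catenin of cell junctions, stood at 0.587, 0.874 and 0.828 CPM with SLR10 and 20.3 and 21.8 CPM with vehicle (-4.10 ± 0.37, adjusted p = 1.32e-06). Slc26a11, a solute carrier gene, fell from 14.3 and 14.2 CPM to 1.03, 1.05 and 0.792 CPM and Slc43a2, an amino acid transporter, from 45.2 and 45.5 CPM to 4.25, 4.86 and 4.97 CPM (-3.14 ± 0.27, adjusted p = 1.01e-06). All 20 of the largest falls were below both vehicle libraries in each SLR10 library, which the rule for naming them required.

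**Figure D4:**
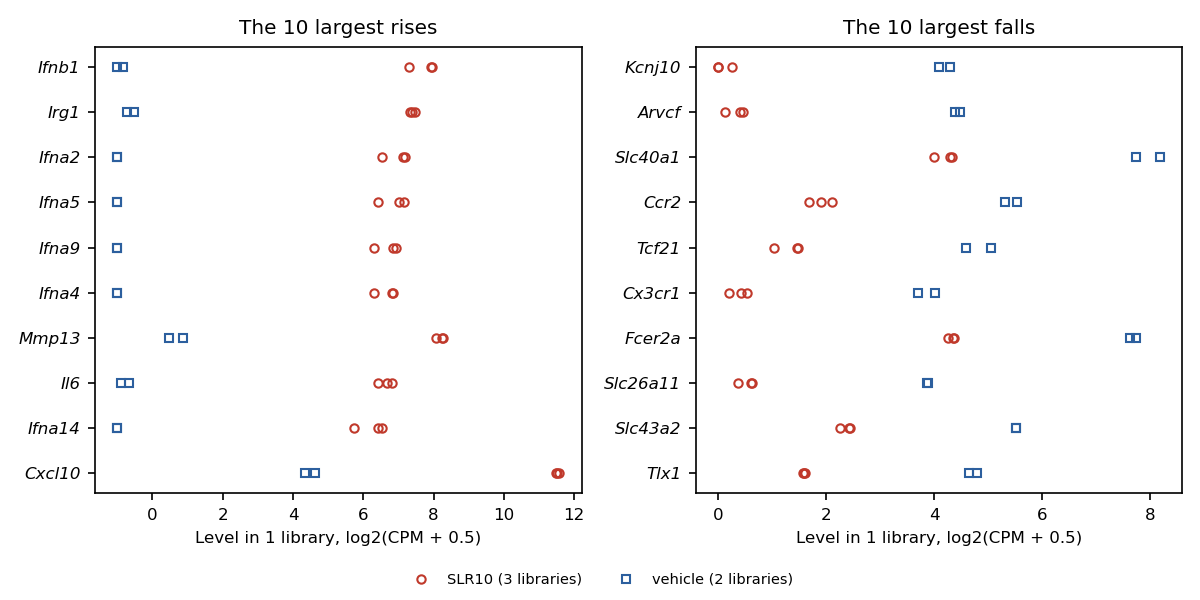
Points are single libraries (circles SLR10, squares vehicle) on log2(CPM + 0.5) for the 10 largest rises and the 10 largest falls that were called, reached 5 CPM on average and showed separate groups, ordered by size. The alpha interferon genes sit at the lowest possible value with vehicle (0 reads) and Cxcl10 reaches the highest level with SLR10.

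SLR10 and SLR14, given under the same injection text, did not differ in any gene at the adjusted threshold. The count was 0 of 13403 (0.0%) by limma and 0 by edgeR on the recovered reads, and 86 genes (0.642%) had an unadjusted p under 0.05 by limma and 273 by edgeR. The share of 0.642% is lower than a threshold of 0.05 would give if no gene differed. The spread pooled over all groups may thus be too wide for this comparison, and the count of 0 is weak evidence of likeness. For 84.4% of genes the 95% interval of the difference lay within 2-fold. Ifnb1 stood at 235, 169.8 and 241 CPM with SLR14, and SLR10 minus SLR14 was -0.00 with a 95% interval of -0.51 to 0.50. For Cxcl10 the SLR14 levels were 2930, 2736 and 3589 CPM and the difference -0.06 with a 95% interval of -0.77 to 0.65. Among falls, Tcf21 was at 1.87, 3.14 and 2.84 CPM with SLR14 (difference -0.29 with a 95% interval of -0.92 to 0.34) and Slc40a1 at 15.5, 28.1 and 23.4 CPM (difference -0.27 with a 95% interval of -0.76 to 0.23). For Ifnl2 the interval left out 0, although the gene was not called (adjusted p = 0.671, limma). It was at 0.957, 0.476 and 0.474 CPM with SLR14 against 1.54, 1.4 and 2.23 CPM with SLR10 (0.98 with a 95% interval of 0.59 to 1.37, not adjusted for the number of genes). These intervals bound the difference and do not show that the 2 RNAs act alike.

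Against poly(I:C), a long synthetic double-stranded RNA whose dose is not stated apart from the shared injection text, 265 of 13403 genes differed (1.98%), 146 higher with SLR10 (1.09%) and 119 lower (0.888%). Alpha interferon genes were higher with SLR10. Ifna13 stood at 1.13, 1.01 and 1.15 CPM with poly(I:C) against 12.7, 7.72 and 11.3 CPM with SLR10 (SLR10 minus poly(I:C) 2.76 ± 0.20, adjusted p = 8.22e-06), and Ifna5 at 40.6, 17.8 and 23.5 CPM against 144, 84.7 and 130.1 CPM (2.16 ± 0.25, adjusted p = 7.91e-04). Hspa1a was higher too (3.25, 1.56 and 2.81 CPM with poly(I:C), 2.76 ± 0.34, adjusted p = 9.85e-04). The lambda interferon gene went the other way: Ifnl2 was at 9.94, 6.86 and 8.46 CPM with poly(I:C) and 1.54, 1.4 and 2.23 CPM with SLR10 (-2.01 ± 0.18, adjusted p = 1.29e-04). Plagl1, a zinc finger factor, and Sema4f, a semaphorin, were lower with SLR10 (-2.22 ± 0.21, adjusted p = 1.77e-04, and -2.01 ± 0.21, adjusted p = 2.97e-04). The gelatinase gene Mmp9 stood at 35.7, 19.7 and 20.3 CPM with poly(I:C), 7.81, 6.32 and 5.33 CPM with SLR10 and 9.82 and 7.57 CPM with vehicle, so that the SLR10 libraries overlapped with vehicle and lay below poly(I:C) (-1.84 ± 0.25, adjusted p = 0.00264). Mmp8, called higher with SLR10 than with vehicle, was lower with SLR10 than with poly(I:C) (103, 50.4 and 56.8 CPM with poly(I:C), -1.74 ± 0.33, adjusted p = 0.0155). The count of 265 rested on single libraries: it was 74, 112 and 55 without SLR10 replicate 1, 2 and 3, and 1417, 114 and 100 without poly(I:C) replicate 1, 2 and 3. Mmp8 was not called in 2 of these 6 fits (adjusted p up to 0.103). Hspa1b, the near-identical neighbour of Hspa1a, was also called higher with SLR10 (2.15 ± 0.39, adjusted p = 0.0124), but not in 3 of the 6 fits (adjusted p up to 0.0599). The other genes named here kept their call in the 6 fits.

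**Figure D5:**
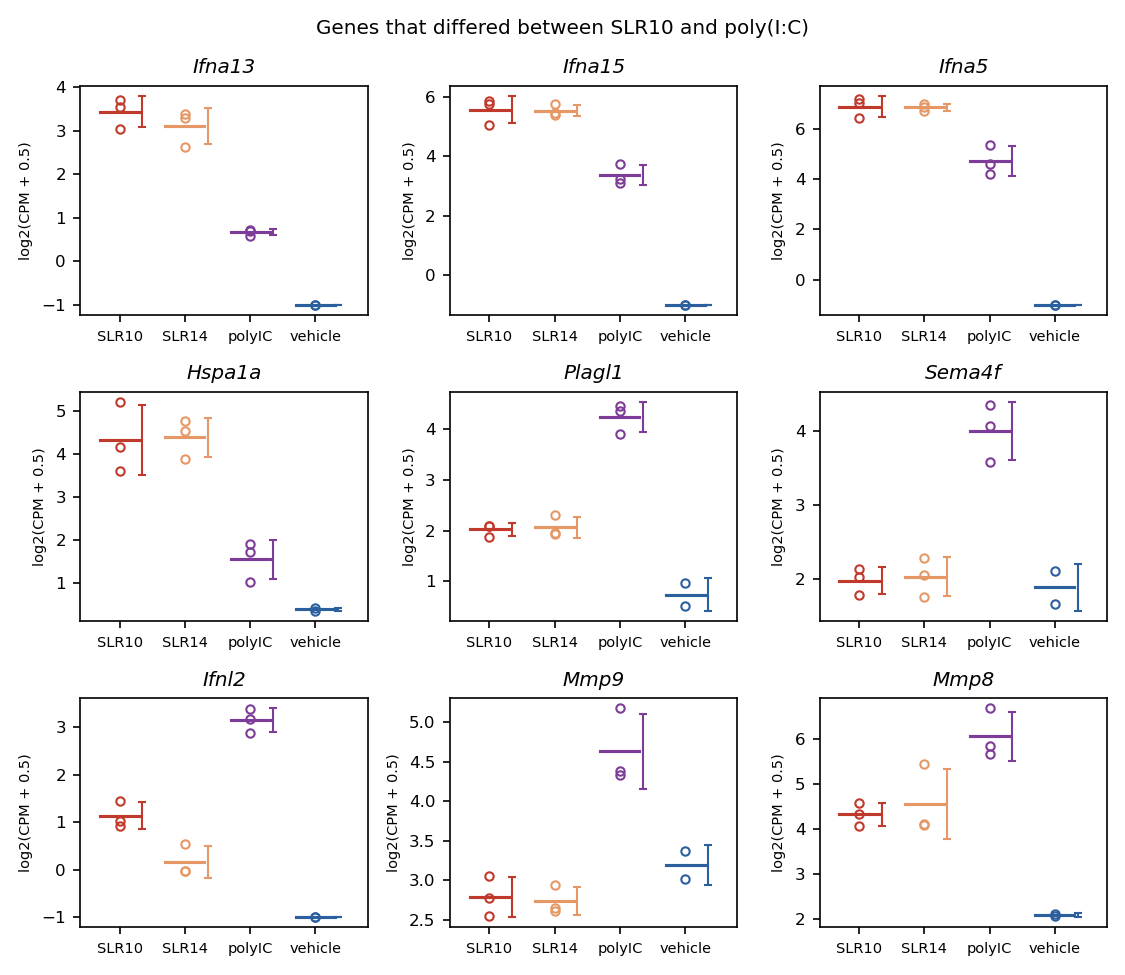
Levels of 9 genes that differed between SLR10 and poly(I:C), in log2(CPM + 0.5), with 1 circle per library, the group mean as a horizontal line and its SD as the bar beside it. Ifna13, Ifna15, Ifna5 and Hspa1a are higher with SLR10 than with poly(I:C), and Plagl1, Sema4f, Ifnl2, Mmp9 and Mmp8 are lower.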

How the data were processed

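Spleen RNA was sequenced in 17 libraries from stranded mRNA preparations of 500 ng of total RNA, per the labels. The submitters' processing notes name the tools edgeR, HTSeq, SAMtools 1.4, TopHat2 2.0.6, TopHat and FastQC and the builds GRCm38 and mm10, without roles. The deposited table holds a signal per gene named CPM in its header, normalised by the authors with a library size that is not given in the sources used here. Every value was a whole multiple of the value of 1 read (100% within 0.01 reads), so reads were recovered for the count tests.

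Of 39184 lines, 5 without a name, 699 named #N/D, 27 whose names had become date numbers and 113 repeats of 87 names were left out. On the log2(CPM + 0.5) scale, limma 3.58.1 (R 4.3.3; mean-variance trend, Benjamini-Hochberg, threshold 0.05) fitted 1 model to the 17 libraries, so the spread is pooled over 6 groups. Within the pppNS group, lines without a gene name held 46.1% of the reads in replicate 3 and 35.1% and 33.7% in replicates 1 and 2. The part of that library in the pooled spread was not tested. Intervals are 95% intervals, and floors (3 reads) cover counting error only. On simulated data (13403 genes, 100 of them changed by 2-fold and 100 by 4-fold), the fit found 16% of 2-fold and 80% of 4-fold changes, and 4.95% of its calls were false. In the data 40.3% of genes were called, a far larger share than was changed in the simulation. The adjusted threshold depends on that share, so the simulated shares do not carry over to this comparison. edgeR 4.0.16 and DESeq2 1.42.0 on recovered reads were alternatives.

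The genes compared and the 48 lists were chosen with earlier results of these data known. Named are the 20 largest rises and falls (called, mean of at least 5 CPM, no overlap, no numbered models), up to 6 members per list by adjusted p, the 10 genes with the most reads, with no vehicle read or with the largest spread under SLR10, and 5 each way against the other RNAs. Ddx58, Casp9, Cryab, Fkbp5, Sgk1, Il7, Il16, Esm1 and Thbd were named after their values were seen. Some genes that this rule names are not reported here. Positions come from GENCODE vM21 and promoters from RefSeq (GRCm38.p6). Deviations of same-numbered SLR10 and vehicle libraries from their group means correlated by -0.03 and 0.11. The deviations of the 2 vehicle libraries mirror each other, so these values cannot show whether the replicate numbers pair the libraries.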

Additional observations from a re-analysis of the deposited data

How the results depend on the processing

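Depth limited genes near 1 CPM, since 1 read was worth 0.0199 to 0.0367 CPM, and the pooled spread limited small changes: the 95% interval lay within 2-fold for 38.2% of genes. The count of 5396 called genes rose to 9676 with only the 5 libraries in the fit and to 9737 with library weights, while it was 5358 and 5432 with a pseudocount of 0.1 or 2, 4130 and 6262 with a filter of 5 CPM or none, and 5300 by edgeR and 5833 by DESeq2. Of the 5396, the same call was made for 5394 with only the 5 libraries, 5164 by edgeR, 5366 by DESeq2, 4829 with the naive mice as control (1 opposite), 4331 under quantile scaling (4 opposite) and 3965 when scaled to named reads, an alternative chosen after seeing the data (0 opposite). With each replicate left out in turn the count was 3737 to 4650 against vehicle, 0 to 0 against SLR14 and 55 to 1417 against poly(I:C). A fit without 1 vehicle library assumes that the other varies like the remaining groups. Of the named genes Ifi30, a class II processing gene, changed sign under quantile scaling (a log2 difference of -0.0610), and the cause was not tested.

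With the replicate number as a block, 5555 genes were called against vehicle in all 17 libraries and 8832 with only the 5 libraries, 0 against SLR14 and 326 against poly(I:C). The pairing is only a shared number: same-numbered deviations correlated by -0.13, 0.06 and 0.14 with SLR14 and by -0.12, -0.05 and -0.09 with poly(I:C).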

Other observations

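Housekeeping lists moved little. Of 53 cytosolic ribosomal protein genes 0 were called by limma or by edgeR, and 0 had an unadjusted p under 0.05 by either tool (median 0.27). The sign of that median depends on the scaling, as it was -0.60 under quantile scaling, with 28 called lower, and -0.23 when scaled to named reads. In a fit of the 5 libraries alone 46 were called higher. Of 30 nuclear genes of oxidative phosphorylation 1 was called, Cycs, which encodes cytochrome c (94.4, 80.8 and 88.7 CPM with SLR10 and 30.9 and 30.4 CPM with vehicle, 1.5 ± 0.28, adjusted p = 6.33e-04). The median of that list was 0.16, and -0.17 under quantile scaling and -0.34 when scaled to named reads. Transcripts of the mitochondrial genome took 2.51% to 2.73% of the reads in named genes with SLR10, against 4.04% and 4.54% with vehicle. Of 37 cell cycle genes 4 were higher (2 without vehicle replicate 1) and 2 lower (1 without vehicle replicate 1 and again without replicate 2), and the proliferation markers Mki67 (-0.26 ± 1.08) and Top2a (-0.14 ± 0.78) did not pass. Ccnd2, a cyclin of early G1, rose by 2.67 ± 0.45.

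Megakaryocyte genes gave 2 rises and 1 fall of 20 (median 0.16, and -0.33 when scaled to named reads), with Pf4 at 28.5, 17.8 and 24.6 CPM with SLR10 and 21.0 and 19.96 CPM with vehicle (0.18 ± 0.48). Without any 1 of the 5 libraries 1 rise, of Thbs1 (2.19 ± 0.33), and 0 falls were left. Immunoglobulin genes differed among the libraries of a group: Ighm was at 2900, 2827 and 2940 CPM with SLR10 and 3654 and 2684 CPM with vehicle and Ighg2c at 65.2, 59.1 and 125 CPM with SLR10 and 207 and 52.1 CPM with vehicle.

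The genes with the most reads in the SLR10 libraries included 2 that are known for antiviral roles. Rnf213, a large E3 ligase, was at 3725, 3929 and 4186 CPM with SLR10 and 185 and 263 CPM with vehicle (4.16 ± 0.51, adjusted p = 1.98e-05), and Samhd1, which depletes nucleotides, at 3400, 3495 and 3557 CPM with SLR10 and 371 and 371 CPM with vehicle (3.23 ± 0.28, adjusted p = 8.64e-07). Helz2, a nuclear helicase, rose from 226 and 189 CPM to 2267, 2640 and 2617 CPM (3.60 ± 0.35, adjusted p = 2.39e-06).

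The gene with the largest spread among the SLR10 libraries was Slc15a2, a peptide transporter, at 2.35, 36.5 and 52.1 CPM with SLR10 and 36.4 and 10.2 CPM with vehicle (not called, -0.17 ± 1.29). It also ranged over 15.7, 3.85 and 14.7 CPM in the naive mice. The neutrophil granule genes Camp (22, 6.23 and 9.25 CPM) and Ngp (63.7, 27.5 and 33.4 CPM) were also among the 10 genes with the largest spread.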
